A study of Homo sapiens with 6 samples.

Results

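The genes described here are 32 genes of DNA replication and cell division, chosen by name as a list of proliferation genes. All 32 were measured by a feature assigned to a single gene symbol, out of 18417 genes measured that way, and each gene was represented by its brightest feature. They were divided into 12 S-phase members, which act in replication, nucleotide supply or entry into S phase, and 20 mitotic members, which act in G2 or mitosis. The data were 6 single-colour arrays, all of RNA from human prostate epithelium. The untreated line, RWPE-1, comes from normal adult prostate immortalised with human papillomavirus 18, does not form tumours, and was profiled at passages 18, 38 and 42 on 3 arrays. CAsE-PE is a descendant of RWPE-1 that the labels call malignant, kept without a break in medium holding 5 µM sodium arsenite, with 3 arrays after 30, 33.5 and 35 weeks of exposure. Cells of both groups carry the immortalising virus and were grown in the same serum-free medium with pituitary extract and epidermal growth factor. The passage of the exposed cells is not given in the sources used here, so arsenite exposure and time in culture cannot be told apart. Nothing in the labels says that the arrays of a group came from separate cultures, so the p-values measure only the spread between these arrays. That spread mixes differences of passage or exposure time with technical variation.

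Values are log2 of the deposited intensity plus 1, called levels below, and differences are CAsE-PE minus RWPE-1 for 3 arrays in each group, given with the standard error (SE) from limma. A gene was called when its p, adjusted over all 18417 genes, was under 0.05, and "rose" and "fell" are used only of called genes. Array medians lay between 91.7 and 97.2 intensity units, and the correlation of levels over genes was 0.985 to 0.995 within groups and 0.956 to 0.969 between them. The epithelial label fitted the keratins KRT5, KRT8 and KRT18. KRT18 and the adhesion molecule EPCAM were each read from the brighter of 2 features, and their other features are not given here. The 7 epithelial markers measured had levels of 8.72 to 12.10. Of these, CDH1 (E-cadherin) rose by 0.39, the basal keratin KRT14 fell by 1.60, and 5 were not called. The 5 endothelial markers stayed at or below 6.42 and the 7 fibroblast markers at or below 7.97. Of 6 leukocyte markers PTPRC was at or below 3.99, whereas CD68, a lysosomal protein not limited to leukocytes, reached 10.35. Of these 18 genes 3 were called, all lower in CAsE-PE (PDGFRB, CD14 and CD68), and their part in the results below was not tested. No marker was at 0 on any array, and without detection calls a low intensity cannot be told from background. In bulk RNA, fewer cells in a phase and less RNA per cell in that phase cannot be told apart.

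A dividing cell expresses these genes in waves. Transcription factors of the E2F family, held back by the RB protein, switch on the genes of replication as cells enter S phase, and the E7 protein of the immortalising virus is known to bind RB. Later, a B-MYB and FOXM1 complex switches on the genes of mitosis, many of which carry a cell cycle homology region, or CHR, in their promoters and CCAAT boxes bound by the factor NF-Y. Most of the messages are low in resting cells, which is why the list is widely used as an index of proliferation.

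The promoters of both classes differ in E2F and CHR matches and share CCAAT matches. Of these promoters 6 are shown because their genes carry the differences described below. RefSeq promoter windows, from 250 bases before to 50 bases after the gene start on build GRCh38.p14, were matched for 24 of the 32 members. The members without a window are AURKA, BIRC5, CCNE2, FOXM1, MCM4, MCM5, TPX2 and TTK. The windows printed here are MCM7 (chr7:100101348-100101647, minus strand), MCM3 (chr6:52284693-52284992, minus strand), CDC20 (chr1:43358731-43359030, plus strand), CENPF (chr1:214602945-214603244, plus strand), CCNB2 (chr15:59104896-59105195, plus strand) and TOP2A (chr17:40417847-40418146, minus strand). Capitals mark E2F, CHR and CCAAT matches on either strand.
MCM7: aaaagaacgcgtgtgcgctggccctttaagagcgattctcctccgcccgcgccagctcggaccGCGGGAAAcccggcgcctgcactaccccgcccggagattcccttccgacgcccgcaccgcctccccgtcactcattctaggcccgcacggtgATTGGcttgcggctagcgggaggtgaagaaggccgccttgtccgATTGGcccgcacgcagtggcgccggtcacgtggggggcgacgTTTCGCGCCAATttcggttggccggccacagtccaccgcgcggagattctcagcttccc
MCM3: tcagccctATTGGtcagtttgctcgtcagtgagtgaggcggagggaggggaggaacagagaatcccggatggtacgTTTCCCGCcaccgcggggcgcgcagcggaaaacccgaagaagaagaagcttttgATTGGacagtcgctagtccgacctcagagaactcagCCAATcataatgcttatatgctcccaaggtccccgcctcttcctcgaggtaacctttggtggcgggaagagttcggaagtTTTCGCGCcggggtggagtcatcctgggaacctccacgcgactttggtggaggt
CDC20: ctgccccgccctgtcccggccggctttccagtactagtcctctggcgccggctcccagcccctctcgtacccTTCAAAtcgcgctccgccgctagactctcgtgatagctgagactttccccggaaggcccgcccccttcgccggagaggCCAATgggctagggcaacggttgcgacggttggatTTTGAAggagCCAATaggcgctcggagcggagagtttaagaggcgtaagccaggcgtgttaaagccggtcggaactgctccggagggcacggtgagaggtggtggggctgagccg
CENPF: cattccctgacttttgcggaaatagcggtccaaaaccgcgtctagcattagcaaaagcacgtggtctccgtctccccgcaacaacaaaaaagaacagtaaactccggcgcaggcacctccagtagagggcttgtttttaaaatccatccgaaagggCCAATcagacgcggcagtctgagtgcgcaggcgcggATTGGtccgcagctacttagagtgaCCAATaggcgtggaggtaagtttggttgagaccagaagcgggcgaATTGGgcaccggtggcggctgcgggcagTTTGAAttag
CCNB2: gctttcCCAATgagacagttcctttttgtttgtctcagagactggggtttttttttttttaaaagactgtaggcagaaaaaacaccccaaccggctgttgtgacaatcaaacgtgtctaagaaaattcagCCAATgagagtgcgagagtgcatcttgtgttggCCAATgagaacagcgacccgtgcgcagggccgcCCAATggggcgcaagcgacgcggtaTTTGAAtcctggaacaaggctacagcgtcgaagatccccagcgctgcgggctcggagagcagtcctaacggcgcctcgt
TOP2A: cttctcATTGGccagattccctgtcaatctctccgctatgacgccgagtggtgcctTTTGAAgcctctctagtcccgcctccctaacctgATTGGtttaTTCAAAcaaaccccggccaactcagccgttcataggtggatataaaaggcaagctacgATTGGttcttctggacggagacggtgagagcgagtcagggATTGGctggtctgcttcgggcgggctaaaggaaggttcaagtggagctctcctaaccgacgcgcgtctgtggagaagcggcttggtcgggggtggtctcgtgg

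An E2F match was any of TTTCCCGC, TTTGGCGC, TTTCGCGC or TTTGCCGC, a CHR match was TTTGAA or TTCGAA, and a CCAAT match was CCAAT, each searched on both strands with overlapping matches counted. At the start of MCM7 an E2F match and a CCAAT match share bases. An E2F match stood in 7 of 9 S-phase promoters and in 1 of 15 mitotic promoters, that of CDK1, against 4.5% of the 14237 genes tested that had a window. A CHR match stood in 10 of 15 mitotic promoters and in 1 of 9 S-phase promoters, that of MCM6, against 13.3% of all. At least 2 CCAAT matches stood in 6 of 9 S-phase and 8 of 15 mitotic promoters, against 12.5% of all. Both printed MCM promoters thus hold E2F matches and no CHR match, and the 4 printed mitotic promoters hold CHR matches and no E2F match. These are matches of letters, and binding was not measured.

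Between RWPE-1 and CAsE-PE the list did not move as a block. Of the 32 members 3 rose (FOXM1, MCM5 and CCNB2), 3 fell (CENPF, CDC20 and MCM7) and 26 did not pass the threshold. The share called, 18.8%, was near the 17.7% of all genes that were called and below the 22% of the 12278 genes of higher mean level, among which all 32 members lie. Differences ran from −0.60 to 1.00 with a median of 0.03, and 16 were positive and 16 negative, against a median of −0.06 over all genes. The 3 CAsE-PE arrays lay above all RWPE-1 arrays for 6 members and below them for 4, 10 of 32 in all, where 38.9% of all genes had groups that did not overlap. Without the passage 38 array 3 members were called, the same FOXM1, MCM5 and CCNB2, and the count over all genes went from 3269 to 1888. Without the array at 35 weeks it was 2094.

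**Figure D1:**
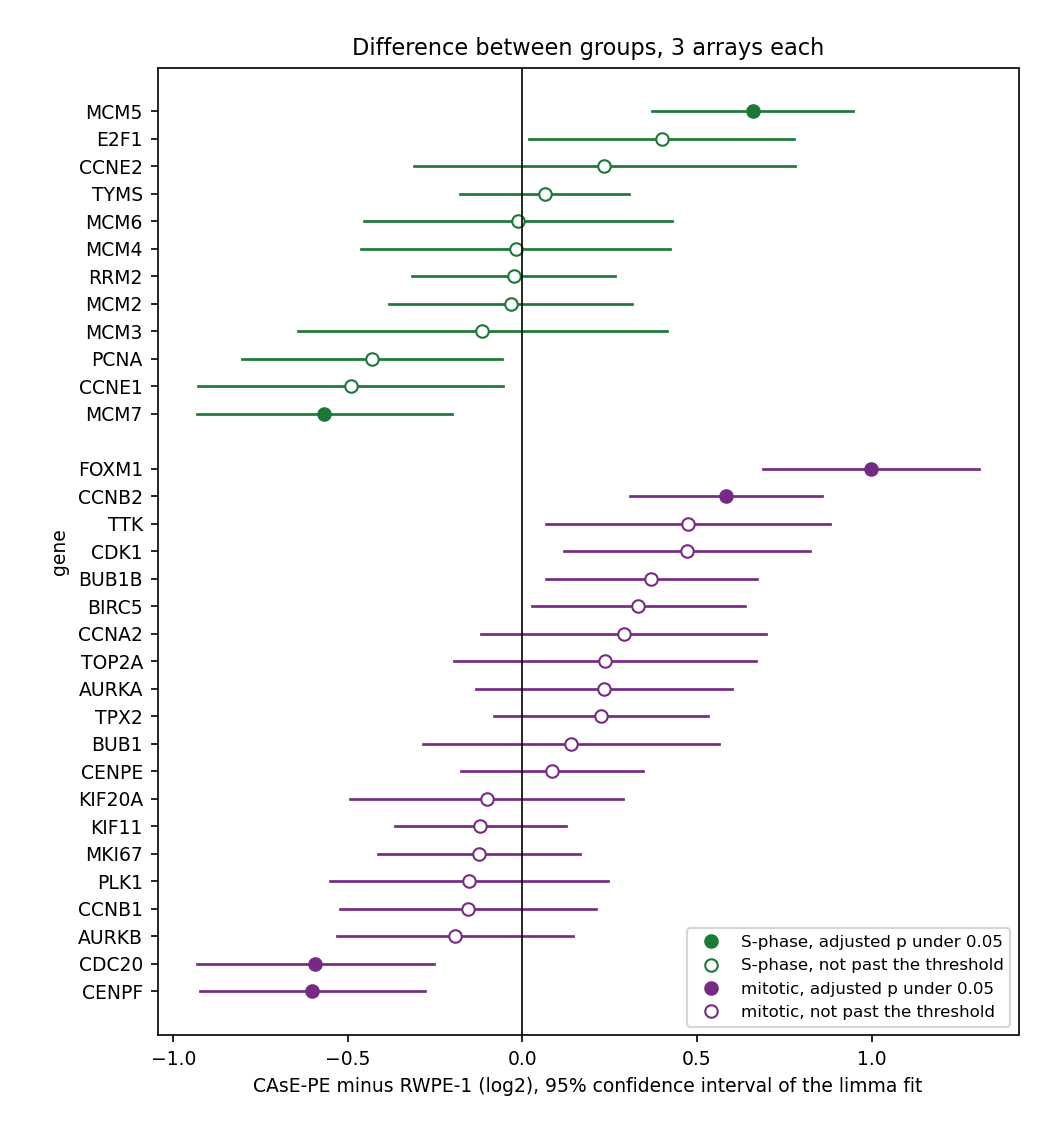
Difference between groups for each of the 32 members (horizontal axis, log2, positive where CAsE-PE was higher, with 95% confidence intervals from limma), with S-phase members in green and mitotic members in purple. Filled points are the 6 called members, 3 on each side of 0, and the largest difference is that of FOXM1 at 1.00.

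Among the factors that drive the programme, FOXM1, the transcription factor of the mitotic wave, had the largest difference of the list. Its levels were 9.11, 9.29 and 8.90 at passages 18, 38 and 42 and 9.91, 10.29 and 10.09 at 30, 33.5 and 35 weeks. All 3 CAsE-PE arrays were thus above all RWPE-1 arrays, and none of them stood apart. FOXM1 (feature 7960340, chromosome 12) rose by 1.00 (SE 0.14, 95% interval 0.69 to 1.31, adjusted p = 0.00133), a 2.0-fold difference that stayed called whichever array was left out (largest adjusted p = 0.00774). Of the other mitotic members CCNB2 rose, CENPF and CDC20 fell, and 16 were not called. E2F1, which drives the S-phase wave, had levels of 8.40, 8.32 and 8.58 in RWPE-1 and of 8.43, 9.0 and 9.06 in CAsE-PE. Its difference of 0.40 (SE 0.17, adjusted p = 0.137) was not called, but without the 30-week array, which lay within the RWPE-1 range, it was 0.60 and called (adjusted p = 0.0100).

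The MCM2 to MCM7 proteins form the ring-shaped helicase that unwinds DNA at the fork, with 1 copy of each in the ring, yet of their messages 1 rose and 1 fell. MCM5 (feature 8072687, chromosome 22) had levels of 9.10, 9.04 and 9.09 in RWPE-1 and of 9.47, 9.90 and 9.83 in CAsE-PE, so all exposed arrays were higher, that at 30 weeks least. It rose by 0.66 (SE 0.13, 95% interval 0.37 to 0.95, adjusted p = 0.00728), or 1.58-fold, and stayed called whichever array was left out (largest adjusted p = 0.0371).

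MCM7 (feature 8141395, chromosome 7) went the other way, with 10.20, 10.25 and 9.95 in RWPE-1 and 9.23, 9.60 and 9.86 in CAsE-PE. The exposed arrays were all lower, although that at 35 weeks was 0.09 below the passage 42 array. It fell by 0.57 on the log2 scale (SE 0.16, adjusted p = 0.0402). That call was lost without the array at passage 18 (adjusted p = 0.107), passage 38 (0.140), 30 weeks (0.0785) or 33.5 weeks (0.0833). The 4 other subunits, MCM2, MCM3, MCM4 and MCM6, differed by −0.12 to −0.01, and their 95% intervals reached from −0.64 for MCM3 at the low end to 0.43 for MCM6 at the high end. None of them had groups that did not overlap.

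Of the other S-phase members none was called. PCNA, the sliding clamp of the polymerases, had levels of 9.82, 9.84 and 9.55 in RWPE-1 and of 8.94, 9.43 and 9.54 in CAsE-PE. The exposed arrays lay below the untreated ones, at 35 weeks by no more than 0.01, and the difference was −0.43 (SE 0.16, adjusted p = 0.106). Cyclin E1, CCNE1, differed by −0.49 (95% interval −0.93 to −0.05, adjusted p = 0.115) and cyclin E2, CCNE2, by 0.23 (−0.31 to 0.78). TYMS, which makes thymidylate, differed by 0.06 (−0.18 to 0.31), and RRM2, the regulated subunit of ribonucleotide reductase, by −0.02 (−0.32 to 0.27).

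Mitotic members rose and fell in equal number. CCNB2, cyclin B2, a partner of the mitotic kinase CDK1, had levels of 10.21, 10.27 and 10.40 in RWPE-1 and of 11.08, 10.84 and 10.71 in CAsE-PE. Every exposed array was higher, most at 30 weeks, and CCNB2 (feature 7983969, chromosome 15) rose by 0.58 (SE 0.12, adjusted p = 0.0107), a call kept whichever array was left out (largest adjusted p = 0.0482). Its sister cyclin CCNB1 had a 95% interval of −0.52 to 0.21.

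CDC20, the activator of the anaphase-promoting complex, had levels of 10.47, 10.64 and 10.40 in RWPE-1 and of 10.05, 10.11 and 9.58 in CAsE-PE. All exposed arrays were lower, that at 35 weeks most. CDC20 (feature 7900699, chromosome 1) fell by 0.59 on the log2 scale (SE 0.15, adjusted p = 0.0250), a call lost without the array at passage 18 (adjusted p = 0.0592), passage 38 (0.102) or 35 weeks (0.0654). CENPF, a large kinetochore protein, had levels of 9.27, 9.66 and 9.59 in RWPE-1 and of 9.11, 8.90 and 8.71 in CAsE-PE. Again the groups did not overlap, but passage 18 and 30 weeks were 0.16 apart. CENPF (feature 7909708, chromosome 1) fell by 0.60 on the log2 scale (SE 0.14, adjusted p = 0.0188), a call lost without the array at passage 38 (adjusted p = 0.0839), passage 42 (0.0558), 33.5 weeks (0.0514) or 35 weeks (0.0745).

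CDK1 itself, the kinase TTK and the checkpoint kinase BUB1B had all CAsE-PE arrays above RWPE-1, with differences of 0.47 (adjusted p = 0.0694), 0.47 (0.104) and 0.37 (0.0911), and did not pass the threshold. BUB1B was called without the array at 35 weeks (0.49, adjusted p = 0.0442). BIRC5, survivin, a subunit of the chromosomal passenger complex, had 7.94, 8.14 and 8.01 in RWPE-1 and 8.58, 8.40 and 8.10 in CAsE-PE, groups that overlapped, with a difference of 0.33 (adjusted p = 0.126). A dimmer second feature of BIRC5 differed by 0.14. The proliferation antigen MKI67 differed by −0.12 (95% interval −0.41 to 0.17), and the spindle motor KIF11 by −0.12 (−0.37 to 0.12). Over the 20 mitotic members 2 rose, 2 fell and the median difference was 0.18, while over the 12 S-phase members 1 rose, 1 fell and the median was −0.02. Both medians rest on the 30-week array: without it the mitotic median was −0.00 and the S-phase median 0.18.

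That array is where the classes parted. The level of each member was set against its own RWPE-1 mean, and the median of a class was taken on each array. At 30 weeks the S-phase members had a median of −0.45 and the mitotic members one of 0.52. At 33.5 weeks the values were 0.10 and 0.09, and at 35 weeks 0.21 and −0.08. In RWPE-1 the S-phase medians were 0.09, 0.04 and −0.13 and the mitotic medians −0.08, 0.12 and −0.06 at passages 18, 38 and 42. The S-phase median minus the mitotic median was therefore −0.97 at 30 weeks and lay between −0.08 and 0.29 on the other 5 arrays.

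**Figure D2:**
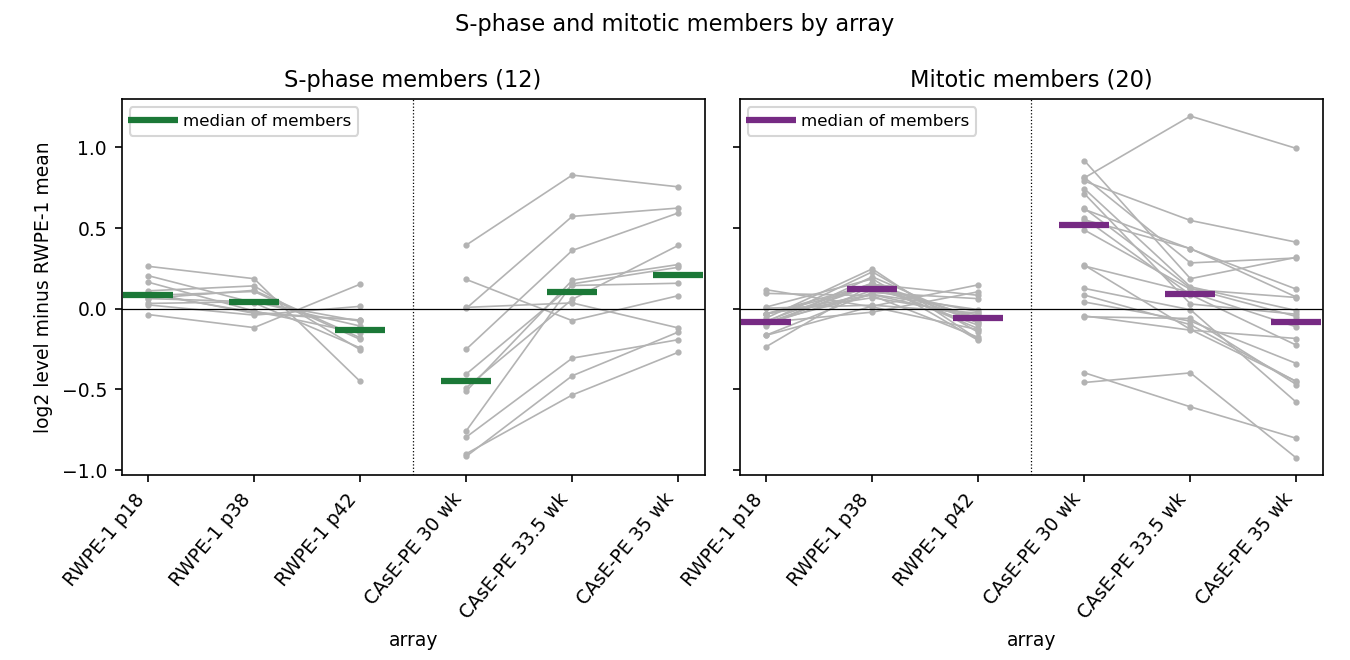
Level of each member minus its RWPE-1 mean (vertical axis, log2) on each of the 6 arrays (horizontal axis), with S-phase members left and mitotic members right. Grey lines join the arrays of a group for 1 gene, and bars mark the median of the class, which at 30 weeks is −0.45 for S-phase and 0.52 for mitotic members.

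Single genes followed the medians. MCM3 had the deepest trough, with levels of 10.16, 10.14 and 9.99 in RWPE-1 and of 9.34, 10.25 and 10.36 in CAsE-PE, so that the 30-week array was 0.96 below the mean of the later exposed arrays, while these were the highest of all 6. Within CAsE-PE, MCM2, MCM4 and MCM6 had the same order, at 8.67, 9.26 and 8.50 at 30 weeks against 9.05 to 10.05 at the later times. Of the 12 S-phase members, 10 were lowest at 30 weeks among the CAsE-PE arrays, where 37.7% of all genes were, and 7 of them were the lowest of all 6 arrays, against 22.5% of all genes. TYMS and RRM2 were the exceptions, at 0.18 and 0.05 above the later mean.

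TOP2A, the topoisomerase that untangles sister chromatids, was highest at 30 weeks, with 9.90, 10.08 and 10.21 in RWPE-1 and 10.78, 10.10 and 10.03 in CAsE-PE. Its 30-week array was 0.71 above the later mean, and those of the S and G2 phase cyclin CCNA2, of TTK, of the checkpoint kinase BUB1 and of the spindle kinase AURKA were 0.68, 0.66, 0.63 and 0.58 above it. Of the 20 mitotic members, 18 were highest at 30 weeks among the CAsE-PE arrays, against 36.1% of all genes, and 12 were the highest of all 6, against 17.6%. FOXM1 was instead lowest at 30 weeks among the CAsE-PE arrays, by 0.28 against the later mean, and CDC20 lay between the others. CENPF and CDC20 were above the mean of their later values at 30 weeks and still below every RWPE-1 array.

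**Figure D3:**
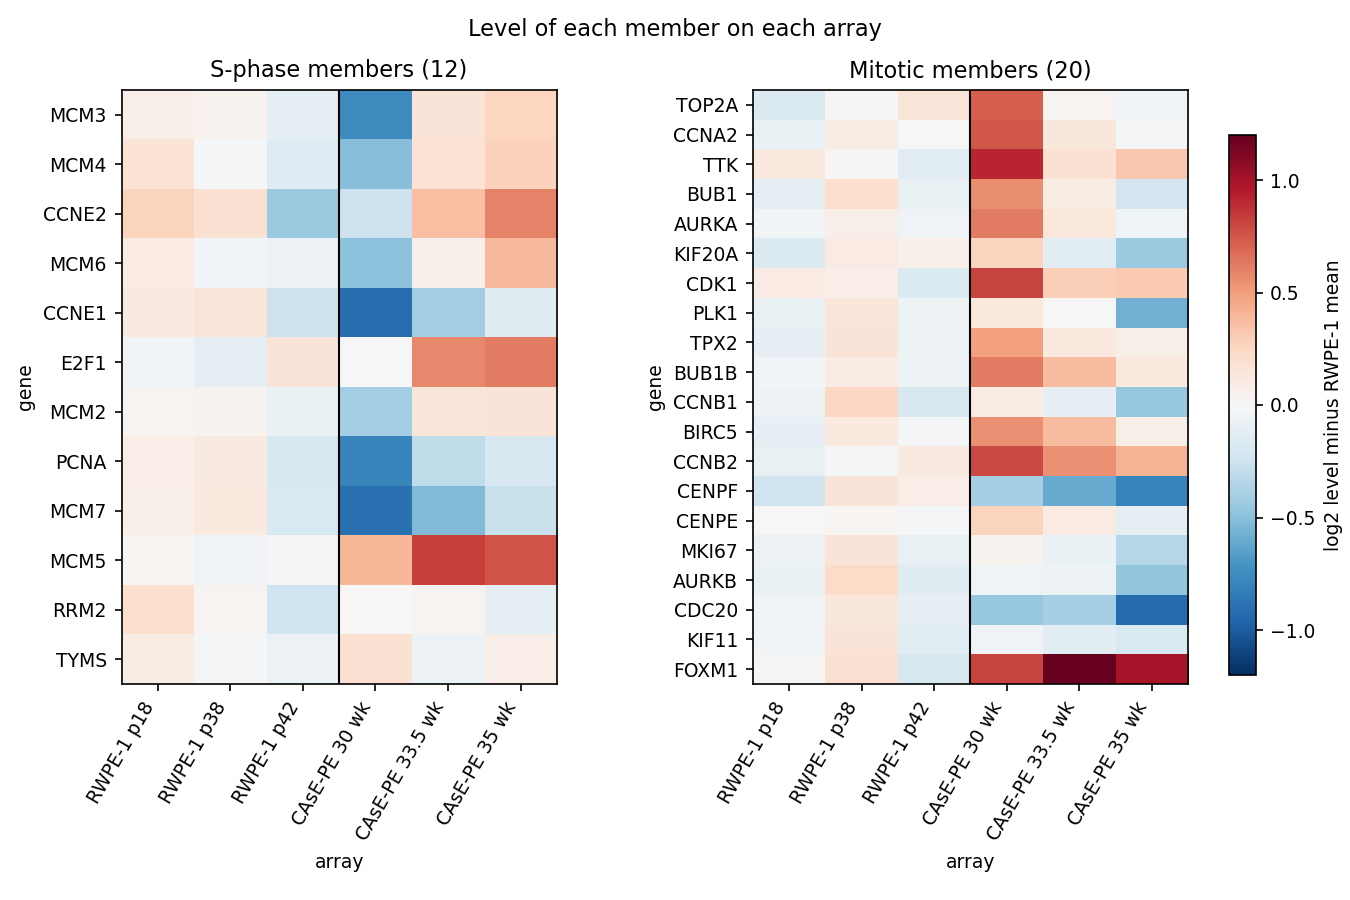
Heat map of the level of each member minus its RWPE-1 mean (colour, log2, red higher and blue lower) on the 6 arrays, with S-phase members left and mitotic members right, each ordered by the contrast of the 30-week array with the later exposure times. The 30-week column is blue for most S-phase members and red for most mitotic members, while FOXM1 is red at all 3 exposure times.

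A fit with a slope on weeks within CAsE-PE and on passage within RWPE-1, which leaves 2 residual degrees of freedom, called 0 members for either slope at an adjusted p under 0.05, and 0.25% of all genes for weeks and 0.0217% for passage. At an unadjusted p under 0.05, 9 S-phase members had a positive slope on weeks (6.41% of all genes), 11 mitotic members a negative one (4.84%), and 0 members a slope on passage (5.82%). In this fit the lowest adjusted p of a member for weeks was 0.0756, that of MCM3. When the fit was repeated with an intensity trend and a robust prior together, 1 member was called for weeks. With 1 array per time, exposure time and the single culture cannot be told apart. Members spread more within CAsE-PE, with a median range of 0.55 over the 3 arrays, than within RWPE-1, where it was 0.26, and over all genes both medians were near 0.25 (0.246 and 0.244). Within RWPE-1 the passage 38 array was the highest for 16 of 20 mitotic members (26.8% of all genes) and the passage 42 array the lowest for 10 of 12 S-phase members (34.5% of all genes).

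Other genes of the same processes, on 8 lists with 186 genes measured, parted at 30 weeks in some lists and not in others. Of 25 spindle and cytokinesis genes, 24 were highest at 30 weeks of all 6 arrays, and CEP55, a cytokinesis protein, was the exception. Their 30-week array was above the later mean by 0.19 to 0.83, with a median of 0.43, against −0.00 over all genes. Examples were the spindle genes CKAP2 (0.83), DLGAP5 (0.82) and HMMR (0.80) and the centromere motor KIF2C (0.78). Of 30 replication fork genes, 23 were lowest at 30 weeks among the CAsE-PE arrays, with a median of −0.27. POLA1, the catalytic subunit of the polymerase that starts new strands, had 8.66, 8.51 and 8.37 in RWPE-1 and 7.48, 8.69 and 8.90 in CAsE-PE, and was the only gene of the 8 lists called for weeks (adjusted p = 0.0211). CHAF1B, a histone chaperone subunit, TIPIN, a fork protector, and the checkpoint adaptor CLSPN were lower at 30 weeks by 0.97, 0.94 and 0.83.

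All 8 nucleotide supply genes and 18 of 21 origin licensing and firing genes were also lowest at 30 weeks among the CAsE-PE arrays, with medians of −0.35 and −0.26. The kinetochore, condensin and cohesin, and E2F, RB and DREAM lists had medians of −0.05, 0.01 and −0.05 and so showed no common direction, and the mitotic entry and APC/C list had 0.17. Promoter letters did not follow this order across the lists. A CHR match stood in 87.5% of spindle and cytokinesis promoters and in 0 of 26 replication fork promoters, but also in 58.6% of kinetochore and 50.0% of condensin and cohesin promoters, against 39.3% for mitotic entry and APC/C. Nucleotide supply promoters, with the lowest 30-week median of the 8 lists, held an E2F match in 12.5% and a CHR match in 2 of 8.

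**Figure D4:**
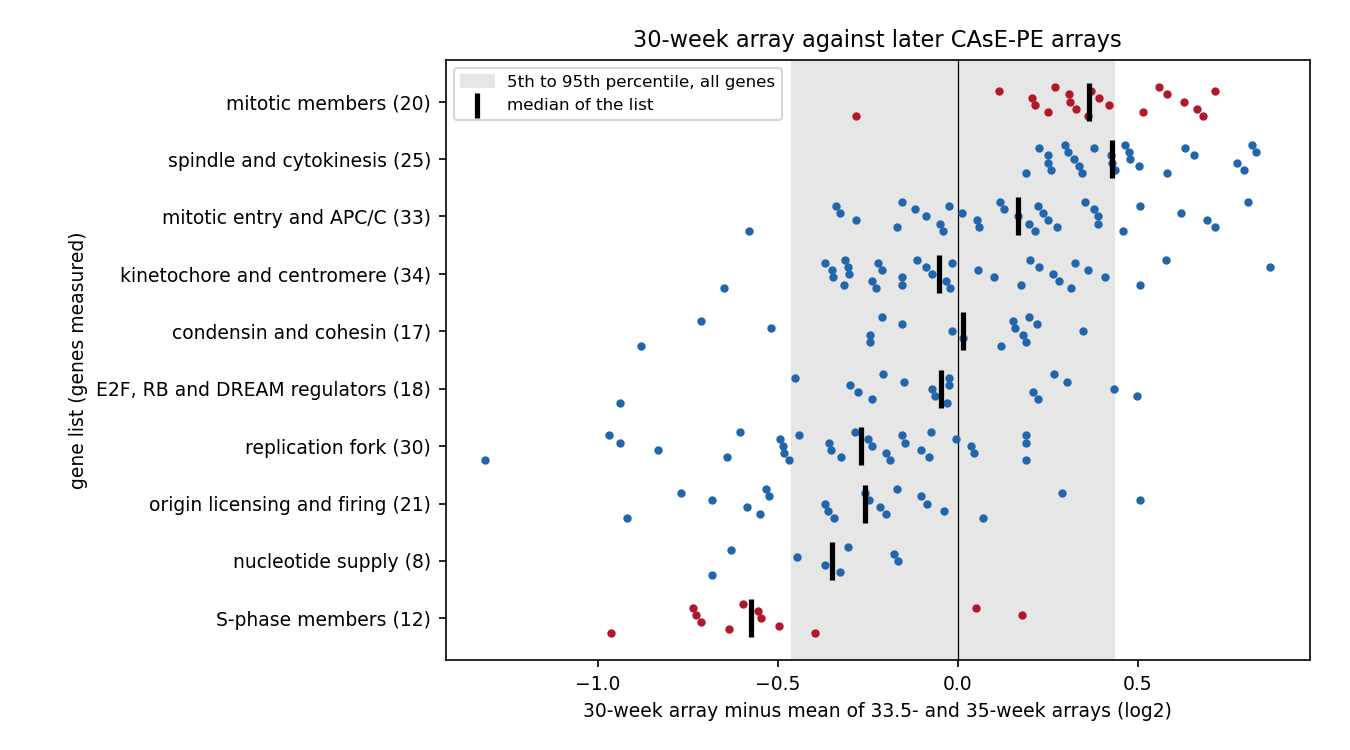
Level on the 30-week array minus the mean of the 33.5- and 35-week arrays (horizontal axis, log2) for each gene of the 2 member classes (red) and of the 8 further lists (blue), with the median of each list as a black bar. The grey band holds the values of all genes from the 5th to the 95th percentile, −0.46 to 0.43, and list medians run from −0.58 for S-phase members to 0.43 for spindle and cytokinesis genes.

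Between groups 18 of the 186 genes rose and 6 fell, a share of 12.9% beside the 17.7% of all genes. Of the genes of higher mean level, among which 185 of the 186 lie, 22% were called. In the fork list POLA2, the second subunit of polymerase alpha, rose (0.55, adjusted p = 0.0494), and in the origin list ORC5, of the origin recognition complex, rose (0.56), but POLA2 was lost with any array left out other than that at 30 weeks and ORC5 without passage 38, 33.5 or 35 weeks (highest adjusted p = 0.169 and 0.0702, both without 35 weeks). DTYMK, which phosphorylates thymidylate, fell (−0.72, adjusted p = 0.00302). Of the RB family, RBL2 rose (0.76, adjusted p = 0.00343) and RBL1 rose (0.62), and TFDP1, the partner of E2F proteins, fell (−0.40). ORC5 and TFDP1 differed about as much as their chromosomal neighbours, as given with the neighbours below. The calls of RBL1 and TFDP1 were each lost without passage 18, passage 38 or 35 weeks, that of TFDP1 also without 30 or 33.5 weeks (highest adjusted p = 0.0598 without passage 38 and 0.141 without passage 18).

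In the kinetochore list OIP5 (0.85), which helps load centromeric histone, the scaffold KNL1 (0.75) and CENPU (0.73) rose, and NSL1 of the MIS12 complex fell (−0.90, adjusted p = 0.00173). HMMR (1.16, SE 0.20, adjusted p = 0.00450) and NUSAP1 (0.90), both spindle proteins, rose, and the kinesin KIF18B rose (0.55), a call lost without 30 weeks, 33.5 weeks or any RWPE-1 array (highest adjusted p = 0.0988, passage 42). In the mitotic entry and APC/C list, PLK4, the kinase of centriole duplication (0.62), and the APC/C subunit ANAPC11 (0.61) rose, as did PBK (0.52). The phosphatase CDC25B (−0.73), the APC/C subunit CDC16 (−0.70) and the kinase MASTL (−0.42) fell, the last by less than the median of its chromosomal neighbours (−0.62). Calls of this list that were lost were those of PLK4 (without 30 or 35 weeks or any RWPE-1 array, highest adjusted p = 0.119), PBK (without passage 18, passage 42, 30 or 33.5 weeks, 0.121), CDC25B (without passage 38, passage 42, 33.5 or 35 weeks, 0.144) and MASTL (without passage 18, passage 38, 33.5 or 35 weeks, 0.0960). The condensin subunits NCAPG2 (0.98, adjusted p = 0.000808) and NCAPH2 (0.36) and the cohesin loader NIPBL (0.49) rose. NCAPH2 was lost with any array left out other than that at 30 weeks, and NIPBL without passage 38, 30 or 35 weeks (highest adjusted p = 0.0912 and 0.106).

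Members also differed in what their chromosomal neighbours did. For each member, the median difference was taken over the 24 nearest of the genes of higher mean level, 12 on each side where the chromosome allowed. This median was at least 0.3 from that of all genes for 6 members, FOXM1, MCM5, CCNB2, BIRC5, CENPF and PCNA, or 6 of 32, against 14.1% of all genes. In all 6 the member and its neighbours differed in the same direction.

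FOXM1 lies on chromosome 12 among 24 genes with a median of 0.57, of which 14 rose and 2 fell. They include RHNO1 (0.92, SE 0.11), a checkpoint gene next to it in the gene order, and RAD51AP1 (1.34), a recombination gene, and also the cyclin gene CCND2 (−0.91). Over its 50 nearest genes the median was 0.19, so its place in a shifted stretch depends on the window. With the median of the 24 taken off, FOXM1 differed by 0.42 (adjusted p = 0.0589). The median to take off depends on the window, and no fit was run with that of the 50. CENPF lies on chromosome 1 between DTL and HLX among 24 genes with a median of −0.58, of which 15 fell and 0 rose, including NSL1 and the licensing regulator DTL (−0.75). Its own difference was within 0.03 of that median (−0.025 with it taken off, adjusted p = 0.926).

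MCM5 lies on chromosome 22 among genes with a median of 0.45, of which 14 of 24 rose, and beyond them it differed by 0.20 (adjusted p = 0.299). PCNA lies on chromosome 20 among genes with a median of −0.53, of which 15 of 24 fell, including the MCM relative MCM8 (−0.70) and CDC25B, and beyond them it differed by 0.10. For CCNB2 on chromosome 15 and BIRC5 on chromosome 17 the medians were 0.29 and 0.25, with 8 of 24 neighbours higher at each, and beyond them CCNB2 differed by 0.29 (adjusted p = 0.132) and BIRC5 by 0.08. CDC20 and MCM7 lay among genes with medians of −0.11 and −0.04, and beyond them differed by −0.48 (adjusted p = 0.0521) and −0.52 (adjusted p = 0.0514). With the median of the 24 neighbours taken off, limma called 0 of the 32 members, and 7 had an unadjusted p under 0.05. These p-values treat that median as known without error, and the median over 50 neighbours was not taken off in a fit. Over 50 neighbours FOXM1 and BIRC5 no longer lay in a shifted stretch, and BUB1B, whose neighbours had a median of 0.26, did. Among the list genes named above as risen or fallen, ORC5 (−0.032) and TFDP1 (0.0018) were near 0 beyond their neighbours. MASTL, which fell less than its neighbours, was at 0.20 beyond them. OIP5, KNL1 and NUSAP1, all on chromosome 15, also lay in shifted stretches, with neighbour medians of 0.39, 0.29 and 0.39. Beyond these medians they differed by 0.46, 0.47 and 0.51. Of the 186 list genes, 32 lay in shifted stretches, against 14.1% of all genes. The calls of DTYMK (−0.37), NSL1 (−0.32), KIF18B (0.30), PLK4 (0.42), CDC25B (−0.22), CDC16 (−0.31), NCAPG2 (0.37) and NIPBL (0.19) were lost there, with adjusted p from 0.0524 to 0.512. The part of copy number in these stretches was not tested.

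**Figure D5:**
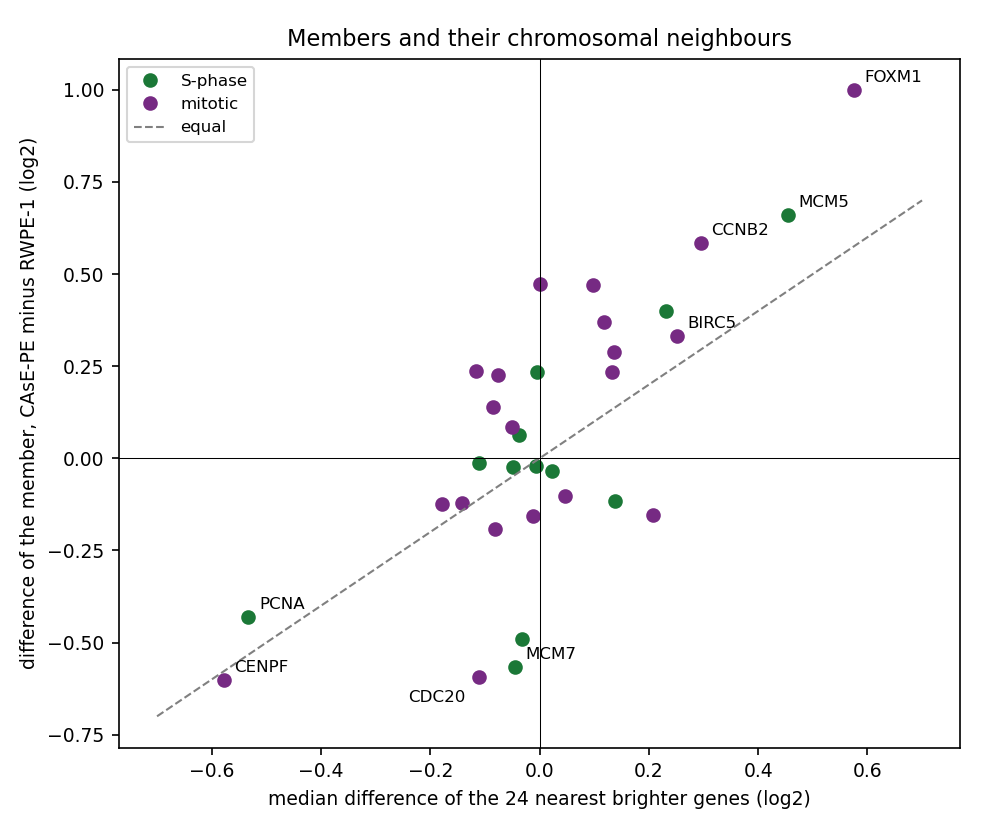
Difference of each member (vertical axis, CAsE-PE minus RWPE-1, log2) against the median difference of its 24 nearest brighter genes (horizontal axis, log2), with S-phase members in green and mitotic members in purple. The dashed line marks equal values: CENPF and PCNA lie close to it, FOXM1 lies 0.42 above it, and CDC20 and MCM7 lie well below it, with values of −0.48 and −0.52 relative to their neighbours.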

How the data were processed

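The authors deposited 1 linear intensity per feature and array for 33252 features and 6 arrays (how they were background-corrected, summarised and normalised: not given in the sources used here). Per the labels' protocols, total RNA was extracted with Trizol and a column kit and labelled with biotin. GEO's platform annotation gave 1 symbol for 19460 features, several for 1754 and none listed for 12038, and 0 symbols needed an update in RefSeq (GRCh38.p14), which also gave chromosome and gene order. Intensities were turned into log2(value + 1), so differences of dim genes are understated. The comparison of groups was fitted in R 4.3.3 by lmFit and eBayes of limma 3.58.1 with 4 residual degrees of freedom. Its two-sided p-values were adjusted by Benjamini-Hochberg over 18417 genes, with calls under 0.05. The trend model was group, passage and weeks. Members and lists were chosen with earlier results of these data known. Arrays' values are given for FOXM1, MCM5, CDC20, called members and members in shifted stretches. Of each list up to 3 rises and 3 falls are named, and further genes were chosen after their values were seen. List medians have no test. Of the lists, CENPA, PMF1, KRT17 and TP63 are among the genes not analysed here. Alternatives were other scalings, a filter on dim genes, a pseudocount of 16, the mean of features, other variance models, each array left out and neighbours' medians taken off. The steps were tested on simulated data. Python 3.11.15 and pandas 2.3.3 were used. Precision is limited by the 3 arrays per group.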

Additional observations from a re-analysis of the deposited data

How the results depend on the processing

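The 6 member calls, 3 in each direction, numbered the same after quantile normalisation, array median centring, a pseudocount of 16, a filter on dim genes, the mean of features, and an intensity trend with a robust prior. With array weights 9 members were called (4 higher and 5 lower, 5 of them S-phase), with 43 genes of the 8 lists and 5342 of all genes. With the medians of 24 neighbours taken off, 0 members were called (0 S-phase, 0 mitotic). The values of 3 of the 22 named list genes changed sign, to near 0 for TFDP1 (0.0018) and ORC5 (−0.0317) and to 0.20 for MASTL. A further 8 lost their call. Leaving out each array in turn gave 3 to 6 members called (1 to 2 S-phase, 2 to 4 mitotic), 13 to 30 list genes and 1888 to 3151 genes in all. The class medians then ranged from −0.15 to 0.18 for S-phase and from −0.00 to 0.31 for mitotic members. Of 22 list genes named for their call, 11 kept it with every array left out. With the intensity trend and robust prior together 1 member was called for weeks. Over 50 neighbours 5 members lay in shifted stretches, in place of 6: FOXM1 and BIRC5 left and BUB1B entered. In alternatives chosen after seeing the data (quantile normalisation, array median centring, a pseudocount of 16 and the mean of features), 10 S-phase members stayed lowest at 30 weeks among CAsE-PE arrays, and 23 or 24 spindle genes highest of all 6. The median of all genes moved from −0.06 to −0.01 with quantile normalisation and −0.04 with median centring. No paired analysis was possible because the labels give passages and weeks, not shared replicate numbers. No signal over background was given, which limits what can be said of dim genes.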
